A study of Mus musculus with 48 samples.

Results

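The transcripts of 10 acute phase proteins (Saa1, Saa2, Saa3, Orm1, Orm2, Hp, Lcn2, Apcs, Crp and Fgb) were followed in the livers of 48 mice of the FCG model, which separates the sex chromosomes from the gonad, fed a high-fat diet (HFD). The genes were chosen by name, and all 10 were found by symbol among the 55414 genes of the count table, of which 35860 had at least 1 read. All 10 also passed the filter on low counts that left 15414 genes for testing. Liver RNA gave 1 library per mouse, with 6 mice in each of 8 groups. The genotypes were XX (XX with ovaries, XX Ov), XY- (a Y chromosome lacking Sry, so XY with ovaries, XY Ov), XX;SryTg (XX with an autosomal Sry transgene and testes, XX Te) and XY-;SryTg (XY with testes, XY Te). Each was studied with intact gonads (Intact) or after gonadectomy (GDX) at 75 days of age. All mice received the diet, with 60% of calories from fat, from 15 to 17 weeks of age, and no group was kept on another diet. By the sample descriptions, HFD lasted 11 weeks in intact and 15 weeks in GDX mice, and the methods of the study give slightly different durations. The presence or absence of gonads, the weeks of diet and the age at collection that follows from them therefore cannot be told apart. Depth on genes lay between 13071874 and 20045141 reads per mouse (median 16577748). Reads mapping to several places took 10.7% to 18.9% of reads in intact and 8.59% to 10.8% in GDX libraries, and 4 of the 6 XY Te Intact libraries held over 15%. The summed level of 10 hepatocyte markers (among them Alb, Apob and Cps1) had group medians between 101523 and 116072 CPM (counts scaled to the total of reads on genes in the library), and each marker had reads in every group. Alb made up most of that sum (median 80069.8 CPM). Of the 10 markers, 2 were higher and 6 lower after ovariectomy, and 2 higher and 5 lower after castration. Of all tested genes, 36% were higher and 33.4% lower after ovariectomy, and 33.4% and 29.9% after castration.

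Acute phase proteins are plasma proteins whose production by hepatocytes changes when tissue is injured or infected. The cytokine interleukin 6 acts through its receptor and the factor STAT3, and interleukin 1 acts through NF-kB and C/EBP factors, to raise transcription of the positive acute phase genes. In mice the serum amyloid A and serum amyloid P proteins are the main reactants, whereas C-reactive protein, the main reactant in humans, responds little. Some members are also made by other cells: Saa3 is known as the macrophage form of serum amyloid A, and Lcn2 (lipocalin 2) is stored in neutrophil granules. In bulk tissue, a change in the number of cells of a type and a change in the RNA per cell cannot be told apart.

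The regions upstream of 7 of the genes are given because the results turn on genes that varied together between mice (Saa1, Saa2, Orm2 and Lcn2), on genes that were higher with intact ovaries (Saa3 and Apcs) and on Fgb, which varied little. The sequences are the 250 bases before the RefSeq start site in build GRCm38.p6, 5′ to 3′ on the strand of the gene, with motif matches in capitals. RefSeq promoters were matched by symbol for 8 of the 10 members, and Orm1 and Hp had none in the table. The positions are those of GRCm38.p6 and not of GRCm39, the build of the counts.
Saa1 (chr7:46742981-46743230, minus strand): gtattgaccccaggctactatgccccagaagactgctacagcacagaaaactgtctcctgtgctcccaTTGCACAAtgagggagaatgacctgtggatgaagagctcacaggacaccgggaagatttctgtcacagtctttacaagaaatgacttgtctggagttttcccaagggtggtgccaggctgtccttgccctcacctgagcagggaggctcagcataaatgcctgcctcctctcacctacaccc
Saa2 (chr7:46751583-46751832, plus strand): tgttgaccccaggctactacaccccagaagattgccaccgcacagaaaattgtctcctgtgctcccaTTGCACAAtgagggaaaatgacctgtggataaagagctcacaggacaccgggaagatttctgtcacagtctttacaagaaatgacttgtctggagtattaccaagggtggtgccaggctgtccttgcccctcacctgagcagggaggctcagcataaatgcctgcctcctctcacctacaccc
Orm2 (chr4:63362199-63362448, plus strand): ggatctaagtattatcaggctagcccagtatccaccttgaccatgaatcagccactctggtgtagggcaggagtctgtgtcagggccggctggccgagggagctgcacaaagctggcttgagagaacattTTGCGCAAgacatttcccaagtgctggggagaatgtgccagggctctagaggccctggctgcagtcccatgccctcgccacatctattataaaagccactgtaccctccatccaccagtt
Lcn2 (chr2:32387740-32387989, minus strand): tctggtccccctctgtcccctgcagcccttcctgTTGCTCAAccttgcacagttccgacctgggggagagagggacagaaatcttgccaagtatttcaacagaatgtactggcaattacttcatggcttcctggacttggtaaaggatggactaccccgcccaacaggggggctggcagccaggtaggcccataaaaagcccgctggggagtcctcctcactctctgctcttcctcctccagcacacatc
Saa3 (chr7:46715677-46715926, minus strand): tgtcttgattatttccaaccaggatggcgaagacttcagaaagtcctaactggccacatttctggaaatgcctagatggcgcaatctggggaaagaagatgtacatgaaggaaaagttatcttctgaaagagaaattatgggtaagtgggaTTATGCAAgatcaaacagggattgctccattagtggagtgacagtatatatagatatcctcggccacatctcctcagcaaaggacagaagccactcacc
Apcs (chr1:172895055-172895304, minus strand): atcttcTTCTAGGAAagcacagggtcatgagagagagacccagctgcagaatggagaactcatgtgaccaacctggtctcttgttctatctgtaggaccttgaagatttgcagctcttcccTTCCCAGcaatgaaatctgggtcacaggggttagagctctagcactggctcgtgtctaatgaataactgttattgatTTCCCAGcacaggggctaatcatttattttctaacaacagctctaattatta
Fgb (chr3:83049864-83050113, minus strand): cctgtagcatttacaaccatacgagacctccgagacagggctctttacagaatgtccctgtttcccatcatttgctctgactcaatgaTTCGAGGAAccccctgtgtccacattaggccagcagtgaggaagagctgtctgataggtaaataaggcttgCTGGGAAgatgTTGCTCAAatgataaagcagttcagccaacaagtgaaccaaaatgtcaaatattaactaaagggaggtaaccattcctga

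Short motifs of 4 kinds were searched on both strands of the 250 bases before and 50 bases after the start of each gene. The C/EBP motif TTGCNNAA was present in 6 of the 8 promoters (Saa1, Saa2, Saa3, Orm2, Lcn2 and Fgb) and in 10.8% of 27025 promoters of the same length. It lay 182 to 175 bases before the start of Saa1 and 183 to 176 bases before that of Saa2, as TTGCACAA in both. The STAT motif TTCNNNGAA was found in Apcs (TTCTAGGAA) and Fgb (TTCGAGGAA), against 8.47% of all promoters. The interleukin 6 response element CTGGGAA was also found only in these 2 of the 8, in 2 copies in Apcs and 1 in Fgb, against 11.1% of all promoters. The NF-kB motif was in none of the 8 windows and in 8.18% of all promoters, and the Crp window held no match to any of the 4. No match overlapped another. The aligned Saa1 and Saa2 promoters were 95.3% identical (287 of 301 aligned columns), whereas those of Saa1 and Saa3 were 51.3% identical. A match describes the letters of a window and not a bound site.

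**Figure D1:**
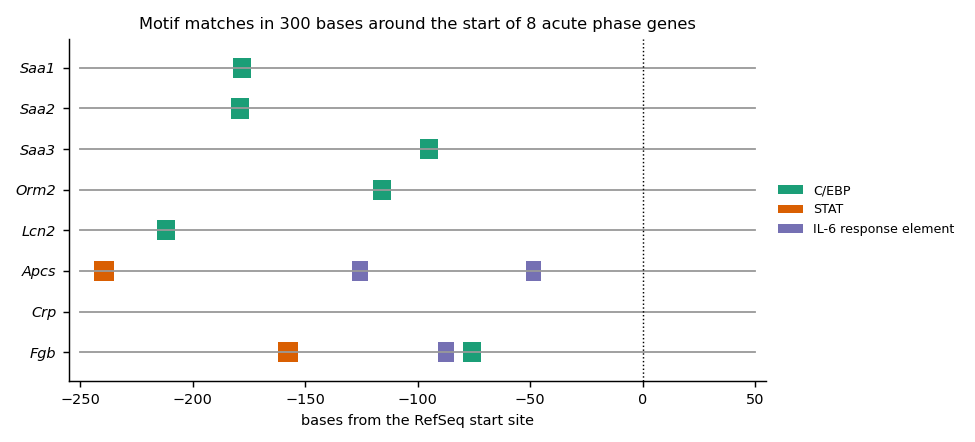
Motif matches in the 300 bases around the RefSeq start of 8 members, drawn by distance from the start site in bases (x axis), with 1 line per gene and 1 colored box per match. C/EBP matches lie upstream of 6 genes, STAT and interleukin 6 response element matches upstream of Apcs and Fgb, and Crp has none.

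The genes lie in small clusters. In RefSeq, Saa3, Saa4, Saa1 and Saa2 follow each other on chromosome 7, Orm1, Orm3 and Orm2 on chromosome 4, and Crp and Apcs are neighbors on chromosome 1. Copies within a cluster share sequence, which bears on how reads are assigned. Of the 50-base windows of annotated Saa1 transcripts, 9.17% were also in Saa2, and of those of Orm1, 20.4% were also in Orm2. Reads from such windows map to several places and were not counted. Hp, Lcn2, Apcs, Crp and Fgb shared no 50-base window with another member.

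Per kilobase of annotated exon, the median level over the 48 mice was highest for Fgb (2143 CPM per kilobase), the beta chain of fibrinogen, and was 11.4 CPM per kilobase for Lcn2, an iron siderophore-binding protein. Hp, the hemoglobin-binding protein haptoglobin, stood at 1674 CPM per kilobase, and Orm1, an orosomucoid (alpha-1-acid glycoprotein), at 715 CPM per kilobase. Saa1 stood at 180, Crp at 157, Apcs at 95.6, Saa2 at 85.4, Orm2 at 31.3 and Saa3 at 13.9 CPM per kilobase. The value of Lcn2 rests on 2302 exon bases, although its annotated transcripts held only 866 windows of 50 bases, and in CPM its median (26.2) was above that of Saa3 (7.39), so its place below Saa3 is uncertain. The spread between mice also differed among the members. Lcn2 ranged 257-fold over all mice (1.24 to 320 CPM), Saa2 155-fold (6.43 to 999 CPM), Saa1 61.2-fold (27.1 to 1658 CPM) and Orm2 53.5-fold (4.20 to 225 CPM). Crp ranged 1.88-fold (180 to 339 CPM) and Fgb 2.80-fold (2120.4 to 5946 CPM). Every member had at least 18 reads in every mouse.

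**Figure D2:**
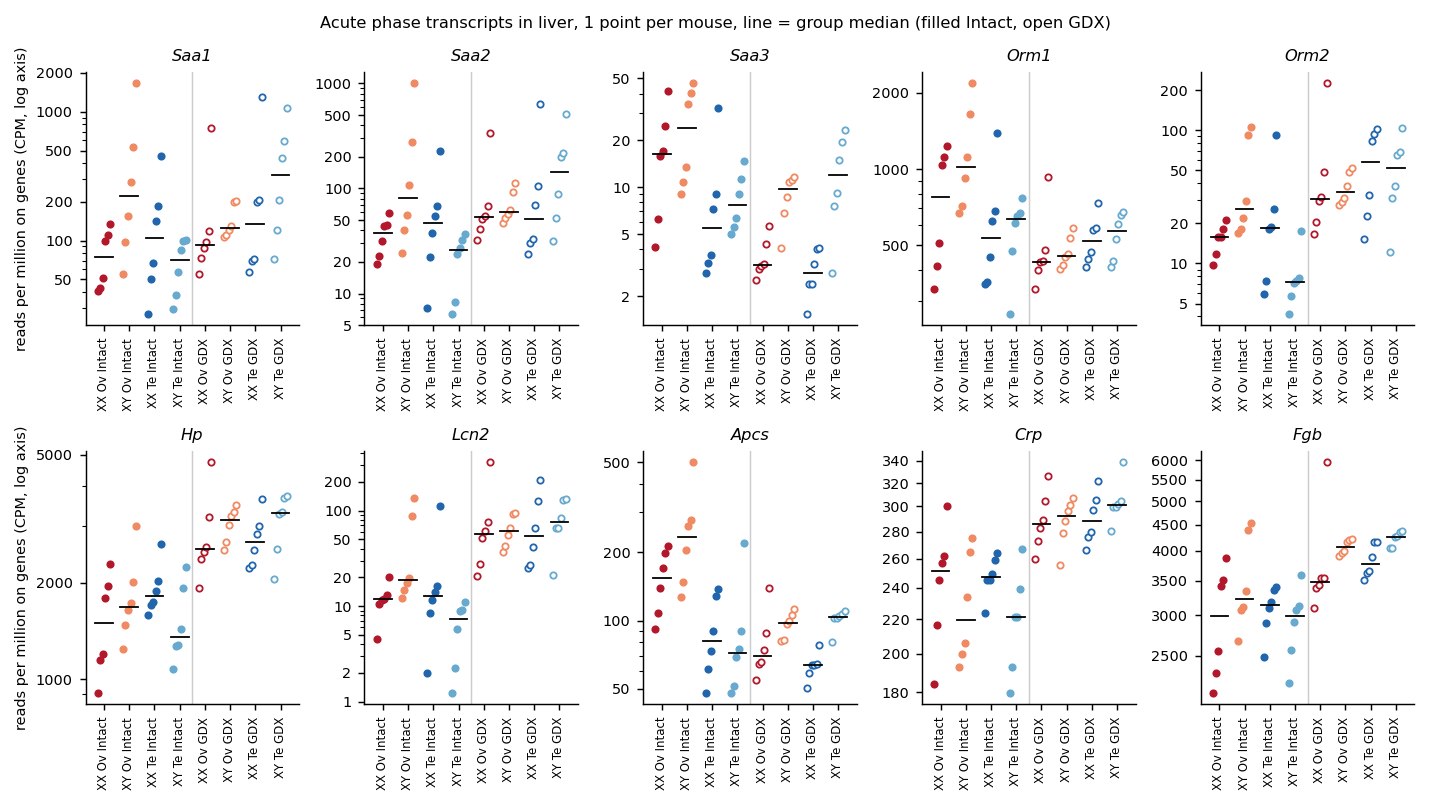
Levels of the 10 transcripts in each mouse (y axis, CPM on a log axis) by group (x axis), with 1 point per mouse, 6 per group, filled for Intact and open for GDX, and a line at the group median. Hp and Lcn2 sit higher in the 4 GDX groups, Apcs, Orm1 and Saa3 sit highest with intact ovaries, and single mice stand far above their groups for Saa1, Saa2 and Lcn2.

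The inducible serum amyloid A genes, Saa1 and Saa2, encode apolipoproteins carried on high-density lipoprotein. Saa1 had its highest group median in XY Te GDX (324 CPM, lowest mouse 72.0, highest 1076) and its lowest in XY Te Intact (70.4 CPM, 29.3 to 100.3). Between these came XY Ov Intact with a median of 221 CPM (55.03 to 1658), XX Te GDX with 135 (57.4 to 1308), XY Ov GDX with 126 (107 to 203), XX Te Intact with 104 (27.1 to 451), XX Ov GDX with 92.7 (54.9999 to 747) and XX Ov Intact with 75.2 (40.8 to 134). The ranges of all neighboring groups in this order overlapped. Saa2 had the same groups at the top and at the bottom, from XY Te GDX (144 CPM, 31.9 to 509.6) and XY Ov Intact (81.9 CPM, 24.2 to 999) down to XX Ov Intact (38.0 CPM, 19.1 to 58.0) and XY Te Intact (25.7 CPM, 6.43 to 36.5). A few mice carried levels several times those of their group: XY Ov Intact replicate 5, XX Te GDX replicate 4, XX Ov GDX replicate 3 and XX Te Intact replicate 2.

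Saa3, the macrophage form, was low and differently ordered. Its medians were 24.0 CPM in XY Ov Intact (9.05 to 46.5) and 16.4 CPM in XX Ov Intact (4.12 to 41.8), and fell to 3.16 CPM in XX Ov GDX (2.55 to 5.61) and 2.80 CPM in XX Te GDX (1.55 to 4.10). XY Te GDX (12.1 CPM, 2.82 to 23.2), XY Ov GDX (9.79 CPM, 4.07 to 11.6), XY Te Intact (7.71 CPM, 4.999 to 14.9) and XX Te Intact (5.46 CPM, 2.83 to 32.4) lay between. Neighboring ranges overlapped throughout.

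Apcs encodes serum amyloid P, a pentraxin like C-reactive protein. It was highest with intact ovaries, at a median of 233 CPM in XY Ov Intact (126 to 499) and 155 CPM in XX Ov Intact (91.7 to 214). The other 6 groups had medians from 63.8 CPM in XX Te GDX (50.2 to 78.0) to 104 CPM in XY Te GDX (80.4 to 110). Orm1 had the same 2 groups on top, at 1023 CPM in XY Ov Intact (670 to 2181) and 775 CPM in XX Ov Intact (335 to 1235), and its lowest median in XX Ov GDX (431 CPM, 335 to 932).

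Orm2, Lcn2 and Hp had the 4 GDX groups on top. Lcn2 medians were 53.7 to 75.4 CPM in the GDX groups and 7.32 to 18.6 CPM in the intact groups. Orm2 medians were 30.5 to 57.6 CPM after GDX and 7.28 to 25.8 CPM in intact mice. Hp medians were 2540.1 to 3295 CPM after GDX and 1353 to 1810 CPM in intact mice. XY Te Intact was the lowest group for all 3 genes. Crp and Fgb also had the GDX groups on top in CPM, but within narrow bounds, at medians of 286 to 301 against 220 to 251 CPM for Crp and 3485 to 4267 against 2985 to 3225 CPM for Fgb. Intact and GDX mice overlapped for each of these 5 genes, and for Orm2 and Fgb the median intact mouse (17.1 and 3099.98 CPM) lay above the lowest GDX mouse (12.2 and 3095 CPM).

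The first question of the design was whether the members depended on the gonad in intact mice. Saa3, Orm1 and Apcs were higher with ovaries than with testes, by 2.42-fold, 1.66-fold and 2.18-fold. Apcs ranged from 91.7 to 499 CPM (median 184) in the 12 Ov Intact mice and from 48.02 to 220 CPM (median 74.1) in the 12 Te Intact mice. Of the Ov Intact mice, 3 lay above every Te Intact mouse and none below them all. The log2 fold change of Apcs was 1.12 (SE 0.23, adjusted p = 0.000335 edgeR quasi-likelihood test, Benjamini-Hochberg adjustment, as for every adjusted p of a fold change here). Saa3 ranged from 4.12 to 46.5 CPM (median 16.4) with ovaries and from 2.83 to 32.4 CPM (median 6.79) with testes, a log2 fold change of 1.28 (SE 0.35, adjusted p = 0.00729). Orm1 ranged from 335 to 2181 CPM (median 984) with ovaries and from 268 to 1386 CPM (median 617) with testes, a log2 fold change of 0.73 (SE 0.24, adjusted p = 0.0219). These ranges overlapped for all 3 genes.

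In all, 3 of the 10 members passed the test in this comparison, all higher with ovaries, where 25.3% of all tested genes passed and 14.1% were higher. The median log2 fold change was 0.88 over the members and 0.04 over all tested genes. Saa2 (log2 fold change 1.33, adjusted p = 0.074), Saa1 (0.95, adjusted p = 0.174), Orm2 (0.87, adjusted p = 0.11) and Lcn2 (0.88, adjusted p = 0.165) did not pass. Hp (-0.03, 95% interval -0.29 to 0.22), Crp (0.01, -0.10 to 0.13) and Fgb (0.10, -0.09 to 0.28) also did not pass. The counts rested in part on 1 mouse: without XX Te Intact replicate 2, Saa2, Orm2 and Lcn2 also passed and the count rose to 6. The call of Orm1 was lost without XX Ov Intact replicate 2 or 6 or XY Ov Intact replicate 5 or 6, with an adjusted p of up to 0.0663. When only intact mice were fitted, Apcs alone passed (adjusted p = 0.0523 for Saa3 and 0.107 for Orm1). The counts over all tested genes in the fits with fewer mice are not given here. With 1 surrogate variable in the model, Orm1 was 0.28 and did not pass (adjusted p = 0.197), and Saa3 and Apcs still passed. With the share of multimapping reads in the model, Orm1 was 1.21 (adjusted p = 0.000103).

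The groups that once had ovaries were compared with those that once had testes after GDX. No member passed the test, where 0.0908% of all tested genes did (14 genes), and at an unadjusted p under 0.05 there was 1 member (Saa1) and 475 genes. The Saa1 log2 fold change was -1.14 (95% interval -2.18 to -0.10, adjusted p = 1), with a median of 115 CPM in Ov GDX (54.9999 to 747) and 203 CPM in Te GDX (57.4 to 1308). For Apcs the interval was -0.32 to 0.57, for Orm1 -0.65 to 0.29 and for Saa3 -0.86 to 0.62. DESeq2's Wald test also called no member.

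Removal of the testes was followed by higher levels of 7 members and lower levels of none. Lcn2 rose most. It ranged from 21.3 to 209 CPM (median 65.9) in the 12 Te GDX mice and from 1.24 to 111 CPM (median 9.03) in the 12 Te Intact mice. The log2 fold change was 2.49 (SE 0.50, 5.62-fold, adjusted p = 3.74e-05), and 4 of the 12 Te GDX mice lay above every Te Intact mouse. Saa2 rose from a median of 29.8 CPM (6.43 to 226) to 79.0 CPM (24.0 to 642), a log2 fold change of 1.90 (SE 0.57, adjusted p = 0.00396). Saa1 rose from 75.3 CPM (27.1 to 451) to 203 CPM (57.4 to 1308), by 1.65 (SE 0.54, adjusted p = 0.00742). Orm2 rose from 7.62 CPM (4.20 to 92.5) to 51.7 CPM (12.2 to 104), by 1.70 (SE 0.42, adjusted p = 0.000525). The ranges overlapped for all 4 genes, with the highest Te Intact value of each in the same mouse, XX Te Intact replicate 2.

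The more abundant members rose by less. Hp rose 1.49-fold, from a median of 1719.5 CPM (1071 to 2638) to 2918 CPM (2059 to 3735), with 7 of 12 Te GDX mice above every Te Intact mouse (log2 fold change 0.57, SE 0.13, adjusted p = 0.000195). Fgb rose 1.17-fold (0.22, SE 0.10, adjusted p = 0.04) and Crp 1.11-fold (0.15, SE 0.06, adjusted p = 0.0295), and for each of them 11 of 12 Te GDX mice had more CPM than every Te Intact mouse. Saa3 (-0.80, adjusted p = 0.0564), Apcs (-0.43, adjusted p = 0.0976) and Orm1 (-0.36, adjusted p = 0.18) did not pass. In this comparison 63.3% of the genes tested passed (33.4% higher, 29.9% lower), and the median log2 fold change was 0.40 over the members and 0.07 over all tested genes.

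Library make-up moved with these groups, also in the share of reads on no annotated gene, which was not modeled. The part of library make-up in the result was not tested apart from the following values. Without the 4 XY Te Intact libraries with over 15% of reads mapping to several places, 3 members passed (Orm2, Hp and Lcn2), Saa1 had an adjusted p of 0.0604 and Saa2 of 0.0575. With the share of such reads in the model no member passed (Lcn2 2.09, adjusted p = 0.111, and Saa1 2.59, adjusted p = 0.0591), where 1819 genes passed in place of 9759. That share was 11.0% to 18.9% in Te Intact and 9.08% to 10.8% in Te GDX libraries, without overlap. This fit therefore cannot separate the share from castration. The calls of Saa1 and Saa2 also rested on XX Te GDX replicate 4, without which their adjusted p were 0.0866 and 0.0538 and the count of members fell to 3. The small changes of Crp and Fgb were lost in 9 and 13 of the 48 fits that left out 1 mouse. For castration too, the counts over all tested genes in fits with fewer mice are not given here.

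Removal of the ovaries was followed by changes in 5 members. Saa3, Apcs and Orm1, the members that were higher with intact ovaries, fell, and Lcn2 and Hp rose. Both comparisons use the same 12 Ov Intact mice, so the fall of Saa3, Apcs and Orm1 is not independent of the earlier result. Saa3 ranged from 2.55 to 11.6 CPM (median 4.98) in the 12 Ov GDX mice and from 4.12 to 46.5 CPM (median 16.4) in the 12 Ov Intact mice. Its log2 fold change was -2.19 (SE 0.37, adjusted p = 1.85e-06), and 5 of the 12 Ov GDX mice lay below every Ov Intact mouse. Apcs fell from a median of 184 CPM (91.7 to 499) to 84.8 CPM (54.4 to 139), with 7 of 12 Ov GDX mice below every Ov Intact mouse (log2 fold change -1.43, SE 0.23, adjusted p = 9.64e-07). Orm1 fell from 984 CPM (335 to 2181) to 440 CPM (335 to 932), with only 1 Ov GDX mouse below every Ov Intact mouse (-1.28, SE 0.24, adjusted p = 1.38e-05).

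Lcn2 rose from a median of 13.9 CPM (4.51 to 136) to 58.7 CPM (20.6 to 320), a log2 fold change of 1.49 (SE 0.48, adjusted p = 0.0053). Hp rose from 1682 CPM (907 to 2994) to 2849.9 CPM (1918 to 4738), by 0.61 (SE 0.13, adjusted p = 6.75e-05), with 6 of 12 Ov GDX mice above every Ov Intact mouse. Saa1 (-0.44, 95% interval -1.47 to 0.59), Saa2 (-0.47, -1.56 to 0.61), Orm2 (0.61, -0.18 to 1.40), Crp (0.07, -0.04 to 0.19) and Fgb (0.08, -0.11 to 0.26) did not pass. Thus 5 of 10 members passed, where 69.4% of all tested genes did, 36% higher and 33.4% lower. With the share of multimapping reads in the model, 2 members remained past the threshold, Saa3 (-1.81, adjusted p = 0.00264) and Apcs (-0.90, adjusted p = 0.0146). Of all tested genes, 2739 were higher and 3609 lower in that fit. The share was 10.7% to 14.4% in Ov Intact and 8.59% to 10.3% in Ov GDX libraries, without overlap. That fit therefore cannot separate the share from ovariectomy. With 1 surrogate variable, Saa3, Apcs and Hp passed, whereas Orm1 (-0.17, adjusted p = 0.492) and Lcn2 (1.34, adjusted p = 0.0816) did not. There 2799 of all tested genes were higher and 3520 lower. With library totals in place of TMM, Crp (0.29) and Fgb (0.29) passed too, and that scaling raised the median of all genes by 0.21.

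**Figure D3:**
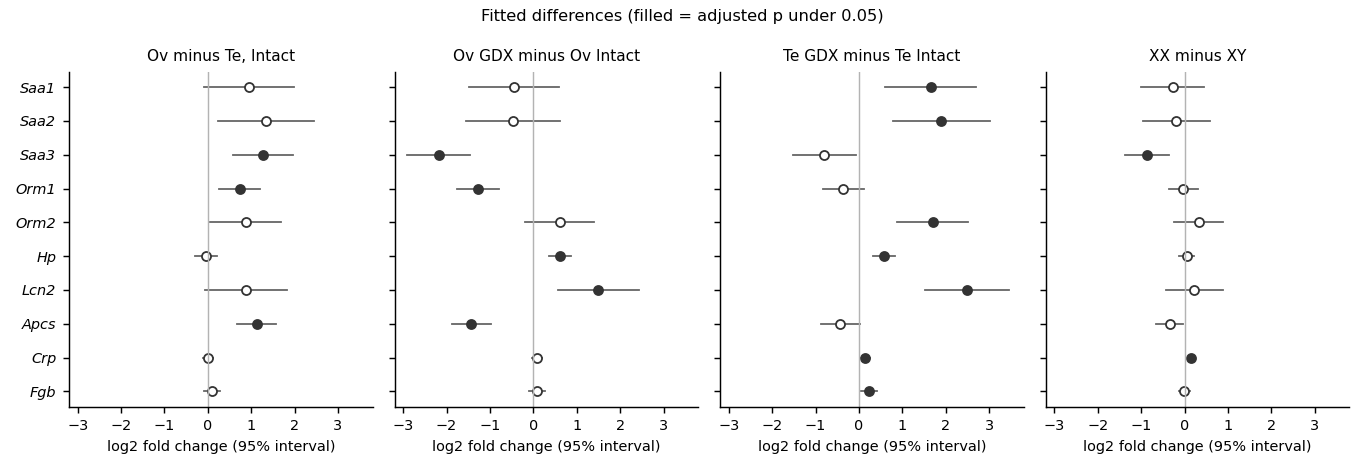
Log2 fold changes of the 10 members (x axis, with 95% intervals as lines) in 4 comparisons, 1 panel each, filled where the adjusted p was under 0.05. Saa3, Orm1 and Apcs lie to the right for ovaries against testes and to the left for ovariectomy, whereas Saa1, Saa2, Orm2 and Lcn2 lie to the right for castration. The comparison of ovaries against testes shares its Ov Intact mice with ovariectomy and its Te Intact mice with castration.

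Over all genotypes, the GDX mice had higher Orm2 (log2 fold change 1.16), Hp (0.59), Lcn2 (1.99), Crp (0.11) and Fgb (0.15) and lower Saa3 (-1.49), Orm1 (-0.82) and Apcs (-0.93) than the intact mice. These were 8 of 10 members, where 76.2% of all tested genes passed (41.2% higher, 34.9% lower). Hp was the most separated in CPM, with 11 of 24 GDX mice above every intact mouse. Orm1 fell and Orm2 rose, but the Orm1 value was 0.030 with 1 surrogate variable in the model and 0.16 with the share of multimapping reads, neither past the threshold. Fgb lost its call in 21 of the 48 fits that left out 1 mouse. When the reads of Orm1, Orm2 and Orm3 were summed, the total followed Orm1, which had the most reads (log2 fold change -0.69, adjusted p = 0.000533).

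Whether castration and ovariectomy acted differently on a gene was tested by the difference of the 2 effects. No member passed, where 5.6% of all tested genes did, but 5 members had an unadjusted p under 0.05. They were Saa2 (difference 2.37, 95% interval 0.82 to 3.92, adjusted p = 0.0642), Saa1 (2.09, 0.62 to 3.56, adjusted p = 0.0872), Saa3 (1.39, 0.38 to 2.40, adjusted p = 0.0983), Apcs (0.998, 0.36 to 1.63, adjusted p = 0.0558) and Orm1 (0.91, 0.25 to 1.58, adjusted p = 0.0995). Without XX Te Intact replicate 2 all 5 passed. DESeq2's Wald test called Saa2 and Apcs, and without the 4 libraries rich in multimapping reads Saa3, Orm1 and Apcs passed. The counts over all tested genes in these fits are not given here, so the member counts have no background beside them. For Hp (-0.04, -0.39 to 0.32) and Crp (0.07, -0.09 to 0.24) the values lay near 0.

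The sex chromosomes were compared over all 24 XX and 24 XY mice. Saa3 was lower in XX than in XY, and Crp was slightly higher. Saa3 ranged from 1.55 to 41.8 CPM (median 4.06) in XX and from 2.82 to 46.5 CPM (median 10.9) in XY mice. The log2 fold change was -0.87 (SE 0.26, adjusted p = 0.00606), and 4 XX mice lay below every XY mouse. After GDX the contrast was -1.51 (SE 0.38, adjusted p = 0.00144), from medians of 3.16 CPM (1.55 to 5.61) in XX GDX and 10.05 CPM (2.82 to 23.2) in XY GDX mice. In intact mice it was -0.24 (SE 0.35, adjusted p = 0.735), and the difference between the GDX and intact contrasts did not pass (-1.28, 95% interval -2.29 to -0.27, adjusted p = 0.201). Crp differed by 0.15 over all mice (SE 0.04, adjusted p = 0.00302) and by 0.15 after GDX (adjusted p = 0.0457), but with library totals in place of TMM the first value was 0.05 and did not pass, and the second was -0.029. In CPM, the XX GDX (259.9 to 326) and XY GDX (256 to 339) mice overlapped almost fully for Crp.

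These were 2 of 10 members, where 36.7% of all tested genes passed (21.9% higher in XX, 14.8% lower), and again 2 of 10 after GDX, where 34.3% passed (19.5% higher, 14.8% lower). In intact mice no member passed by edgeR or by DESeq2's Wald test, where 10.7% of all tested genes did by edgeR, and 1 member (Crp) had an unadjusted p under 0.05. The difference between the GDX and intact contrasts was passed by no member by either tool and by 2.12% of all tested genes, with 1 member (Saa3) at an unadjusted p under 0.05. Apcs was lower in XX by 0.34 without passing (adjusted p = 0.0908). In CPM, 10 of 12 XX GDX mice had less Apcs than every XY GDX mouse (medians 64.4 and 103 CPM), and a fit of the GDX mice alone called it (-0.34, adjusted p = 0.0116).

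Markers of phagocytes also differed between the chromosomes, and their part in the Saa3 contrast was not tested. Of 14 listed neutrophil markers 13 had enough reads to be tested (Ly6g did not, with 3 reads or fewer in 43 of 48 mice). Many of the 13 were low too, with 3 reads or fewer in 29 mice for Mpo, 25 for Elane, Cxcr2 and Cd177 and 24 for Camp. S100a8, S100a9 and Csf3r were that low in 4, 2 and 0 mice. The size of the median changes below therefore rests in part on few reads. All 13, among them S100a8, S100a9 and Mpo, were lower in XX (median log2 fold change -3.79), where 14.8% of all tested genes were lower. Of 14 Kupffer cell and macrophage markers, 11 were lower and 1 higher (median -1.14). In intact mice, 12 of the 13 neutrophil markers (median -3.35) and 9 of the 14 macrophage markers (median -0.80) were also lower, and none higher. There 10.7% of all tested genes passed, and Saa3 differed by -0.24 (adjusted p = 0.735). The summed level of the 14 macrophage markers ranged from 277 to 543 CPM in XX Ov GDX and from 193 to 499.6 CPM in XX Te GDX. In XY Ov GDX it ranged from 828 to 1564 CPM and in XY Te GDX from 566 to 2318 CPM, so that the XX and XY ranges did not overlap after GDX. The 14 neutrophil markers summed to 2.99 to 9.69 CPM in the 12 XX GDX mice, with 1 marker at 0 in all XX Ov GDX and 2 in all XX Te GDX mice, and to 17.4 to 205 CPM in the 12 XY GDX mice. Lcn2, which neutrophils store, did not differ between the chromosomes after GDX by a detectable amount (0.41, 95% interval -0.49 to 1.31).

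**Figure D4:**
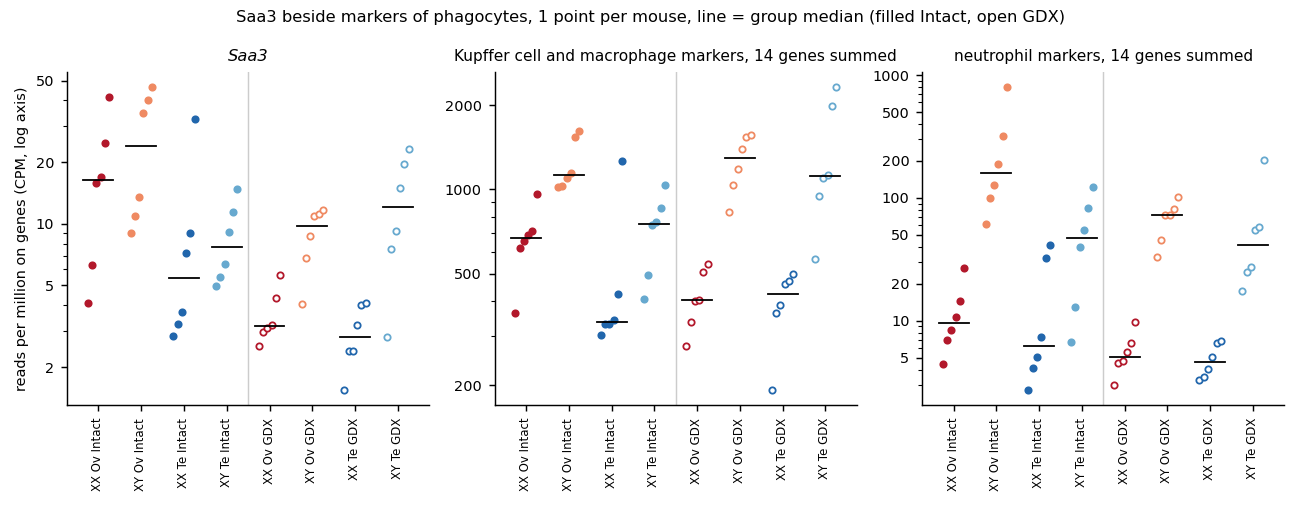
Saa3 and the summed levels of 14 Kupffer cell and macrophage markers and of 14 neutrophil markers in each mouse (y axes, CPM on log axes) by group (x axis), with 1 point per mouse, filled for Intact and open for GDX, and a line at the group median. After GDX the XY groups lie above the XX groups for both marker lists, and the medians of Saa3 are 9.79 and 12.1 CPM in XY against 3.16 and 2.80 CPM in XX.

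In intact mice the chromosomes and the gonad were also crossed. In the CPM medians, XY exceeded XX among mice with ovaries for Saa1 (221 against 75.2), Saa2 (81.9 against 38.0), Orm2 (25.8 against 15.8) and Lcn2 (18.6 against 11.7), and XX exceeded XY among mice with testes for the same 4 genes (104 against 70.4, 46.6 against 25.7, 18.5 against 7.28 and 12.8 against 7.32). The interaction of chromosomes with gonad was -3.52 for Saa1 (SE 1.08, adjusted p = 0.45), -4.20 for Saa2 (SE 1.15, adjusted p = 0.368), -3.18 for Orm2 (SE 0.84, adjusted p = 0.316) and -3.82 for Lcn2 (SE 0.98, adjusted p = 0.316). None passed, and 0% of all tested genes did by edgeR (2 by DESeq2, neither a member), with 4 members and 989 genes at an unadjusted p under 0.05. XY Ov Intact replicate 5 and XX Te Intact replicate 2, the mice with the highest levels of Saa1 and Saa2 in their groups, belong to the 2 groups that this contrast sets high.

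The members varied together between mice of the same group. With the group means removed from log2 levels, Saa1 and Saa2 had Pearson's r = 0.98 and Spearman's rho = 0.97 over the 48 mice (permutation p = 1e-05 for each, the smallest that 100000 resamples can give, adjusted p = 3.46e-05 and 4.09e-05 over 45 pairs). Saa1 with Orm2 (r = 0.88, rho = 0.88), Saa2 with Lcn2 (r = 0.88, rho = 0.89), Orm2 with Lcn2 (r = 0.88, rho = 0.87) and Hp with Lcn2 (r = 0.79, rho = 0.81) reached the same permutation p. Also high were Orm1 with Apcs (r = 0.75, rho = 0.71, permutation p = 1e-05 and 2e-05) and Saa3 with Apcs (r = 0.65, rho = 0.65, permutation p = 1e-05 and 6e-05). Without the 2 mice farthest from the median of the first gene, r was 0.97, 0.88, 0.89, 0.84, 0.77, 0.76 and 0.65 for these 7 pairs in turn.

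Altogether 27 of the 45 pairs passed by Pearson's r after adjustment, and all 27 were positive. Orm1, Apcs and Saa3 were also linked to the other inducible genes, with r = 0.69 (rho = 0.75) for Saa1 and Orm1, 0.63 (rho = 0.67) for Saa2 and Orm1, 0.61 (rho = 0.63) for Saa1 and Saa3 and 0.58 (rho = 0.62) for Saa1 and Apcs, whereas Hp had r = 0.09, 0.19 and 0.08 with Orm1, Apcs and Saa3 and did not pass. Crp and Fgb stood apart, and Fgb passed with Hp and Crp alone. Crp passed with Fgb alone (r = 0.45, rho = 0.40, permutation p = 0.00439 and 0.00901), and this fell to 0.30 without 2 mice. The strength differed between the 24 intact and the 24 GDX mice. Orm1 and Hp had r = -0.21 in intact and 0.78 in GDX mice, Hp and Apcs -0.01 and 0.82, and Saa1 and Crp -0.23 and 0.63, differences that were not tested. Within the intact and within the GDX mice, r was 0.97 and 0.99 for Saa1 with Saa2, 0.86 and 0.89 for Saa1 with Orm2, 0.87 and 0.90 for Saa2 with Lcn2, 0.87 and 0.91 for Orm2 with Lcn2 and 0.74 and 0.87 for Hp with Lcn2. It was 0.77 and 0.65 for Orm1 with Apcs and 0.71 and 0.42 for Saa3 with Apcs. The values share the scaling of each library, and reads of the near-identical copies cannot be fully separated, which bears on the Saa1 and Saa2 pair.

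**Figure D5:**
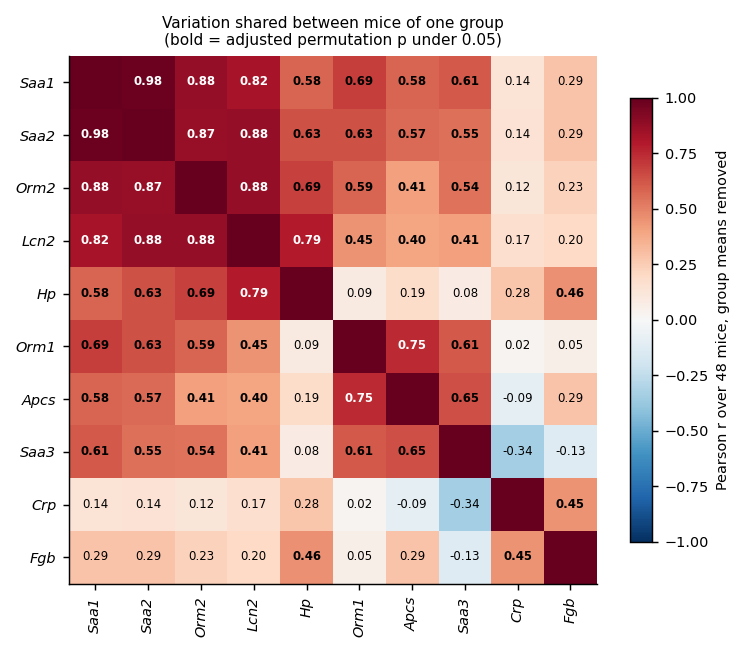
Pearson's r between members over 48 mice after removal of the group means (color and printed value, rows and columns are genes), in bold where the adjusted permutation p was under 0.05. The highest values join Saa1, Saa2, Orm2 and Lcn2 (r between 0.82 and 0.98), Orm1, Apcs and Saa3 are joined to these and to each other, and Crp and Fgb are linked to few others.

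The genes whose variation was most like each member were sought among 13142 other genes with the same measure over 48 mice. Hpx (hemopexin, the heme-binding plasma protein) was among the closest 3 to Saa1 (r = 0.73), Saa2 (r = 0.73), Orm2 (r = 0.74) and Lcn2 (r = 0.74). Lrg1 was close to Saa1 (r = 0.73) and Saa2 (r = 0.72), Fgl1 to Saa1, Saa2 and Orm2 (r = 0.71 with each), and Tmem176a to Lcn2 (r = 0.80). Serpina3n, an acute phase protease inhibitor, was closest to Hp (r = 0.76), and Fga, the alpha chain of fibrinogen, to Fgb (r = 0.89). Saa3 was closest to Fam26f (r = 0.85), Tmsb4x (r = 0.85) and Cyba (r = 0.85), a subunit of the phagocyte NADPH oxidase. Apcs was closest to Serpina10 (r = 0.88) and Orm1 to Mgst1 (r = 0.88), and 714 and 1171 genes had r above 0.7 with them, against 3 for Saa1 and none for Crp, whose closest gene was Fam164c (r = 0.66). These correlations describe likeness of pattern.

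The rest of the acute phase program was described with lists of genes. Of all tested genes, 14.1% were higher and 11.3% lower with ovaries in intact mice. After castration 33.4% were higher and 29.9% lower, and after ovariectomy 36% and 33.4%. Of 21 other positive acute phase genes, 7 were higher with ovaries in intact mice and none lower (median log2 fold change 0.32, against 0.04 over all tested genes), led by the metallothioneins Mt2 (1.87, adjusted p = 0.000393) and Mt1 (1.73, adjusted p = 7.47e-05). After castration 14 were higher and 1 lower (median 0.60, against 0.07), with Mt2 (1.88, adjusted p = 5.96e-05) and Orm3 (1.71, adjusted p = 0.000157) highest and Fgg, the gamma chain of fibrinogen, lower (-0.47, adjusted p = 0.00373). After ovariectomy 11 were higher and 3 lower (median 0.37, against 0.06). Complement C3 (1.15, adjusted p = 8.27e-09) and Itih3 (0.80, adjusted p = 3.09e-07) were highest, and Hamp, which encodes the iron regulator hepcidin (-1.09, adjusted p = 0.00548), and Fgg (-0.85, adjusted p = 1.68e-06) were lowest. Fgb, the chain followed here, did not pass after ovariectomy and was higher after castration; the difference between the chains was not tested.

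The 9 negative acute phase genes, whose products fall in inflammation, moved both ways. Ttr (transthyretin) and Rbp4 (retinol-binding protein 4) were lower after castration (-0.85 and -0.55, adjusted p = 1.78e-08 and 4.83e-05) and after ovariectomy (-0.99 and -0.55, adjusted p = 3.38e-10 and 3.4e-05). Trf (transferrin) was higher after both (0.64 and 0.41, adjusted p = 7.82e-07 and 0.00039). Serpina6, the corticosteroid-binding globulin, was higher after castration (0.82, adjusted p = 7.58e-06) and with ovaries in intact mice (0.72, adjusted p = 0.000328).

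Of 10 cytokines of the acute phase, 5 had enough reads to be tested. Il6 was low, at a median of 0.259 CPM and with 3 reads or fewer in 19 of 48 mice. It was higher with ovaries in intact mice (log2 fold change 1.73, adjusted p = 0.00248) and lower after ovariectomy (-2.90, adjusted p = 3.67e-06) and castration (-1.57, adjusted p = 0.0394). Il1b (median 12.7 CPM) was higher with ovaries in intact mice (1.39, adjusted p = 0.0037) and lower after ovariectomy (-1.91, adjusted p = 1.82e-05). Il18 was higher with ovaries in intact mice (0.64, adjusted p = 0.00893) and lower after ovariectomy (-1.50, adjusted p = 4.01e-09) and castration (-0.85, adjusted p = 0.000121). No cytokine of the list was higher after either operation. Between the chromosomes, 3 of the 5 were lower in XX and none higher (median log2 fold change -2.64), where 14.8% of all tested genes were lower. After GDX 4 were lower in XX (median -3.46), where 14.8% of all tested genes were lower. In intact mice 3 were lower in XX (median -1.83), where 10.7% of all tested genes passed.

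Of 25 tested receptors and signaling genes, 16 were higher and 1 lower after ovariectomy (median 0.36, against 0.06), where 36% of all tested genes were higher. After castration 12 were higher and none lower (median 0.21, against 0.07), where 33.4% of all tested genes were higher. Il6ra, the ligand-binding chain of the interleukin 6 receptor, rose by 0.77 after ovariectomy (adjusted p = 1.22e-06), and Nfkbiz, an atypical IkB protein, rose by 0.999 after castration (adjusted p = 7.25e-09). With ovaries in intact mice 3 were higher, among them Il10rb (0.56, adjusted p = 0.00396), and 5 lower, among them Il1r1 (-0.43, adjusted p = 0.0283). Of 12 transcription factors of acute phase genes, 5 were higher after ovariectomy and 4 after castration and none lower, where 36% and 33.4% of the genes tested were higher. Fos, an immediate early gene, rose by 0.73 after ovariectomy (adjusted p = 0.0131), and with ovaries in intact mice Hnf4a (-0.43, adjusted p = 0.00657) and Cebpa (-0.22, adjusted p = 0.0475) were the 2 that were lower.

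Markers of other cells moved with the gonadal contrasts as well, and their part in the members' values was not tested. In intact mice, 6 of 14 macrophage markers were higher with ovaries and none lower, and 6 of 10 lymphocyte markers were higher and 1 lower, beside Saa3, Il1b and Il6, where 14.1% of the genes tested were higher. The summed macrophage markers ranged from 362 to 1623 CPM (median 991) with ovaries and from 302 to 1264 CPM (median 460) with testes. After castration 6 of 14 macrophage markers were higher and 2 lower, and after ovariectomy 3 were higher and 4 lower. Of all tested genes, 33.4% were higher and 29.9% lower after castration, and 36% and 33.4% after ovariectomy. The neutrophil markers showed 1 higher and 4 lower after ovariectomy and 1 higher and 2 lower after castration, where Lcn2 was higher in both. Of 8 stellate cell markers, 5 were higher and 1 lower after ovariectomy (median 1.23) and 5 higher and none lower after castration (median 0.86). Of the 10 lymphocyte markers, 5 were lower after ovariectomy and none higher, and 1 was higher and 1 lower after castration.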

How the data were processed

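Liver RNA of 48 mice was sequenced by the study. Per the labels, reads were aligned with STAR 2.7.10a to GRCm39, and DESeq2 1.36.0 is named; the annotation release and strand setting are not given in the sources used here. The deposited table holds raw counts of reads per gene, made by the authors with no normalization, and 4 summary lines that were left out. Depth was 13071874 to 20045141 reads on genes, so 3 reads equal 0.150 to 0.230 CPM.

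Symbols were matched to 31020 gene identifiers, and all 160 listed genes were found, 1 of them by an older symbol. edgeR 4.0.16 (R 4.3.3; TMM, filterByExpr, robust quasi-likelihood test) was fitted to all 48 mice with 8 group means, and p-values were adjusted by Benjamini-Hochberg over 15414 genes. The model makes each comparison an average over the groups it joins, so fitted folds can differ from ratios of medians. On simulated data, 168 of 200 changed genes were recovered (84%) in the ovariectomy comparison, run on 15018 genes, with 10 false calls. The fitted changes had a median absolute log2 fold change of 1.00, and no difference in library make-up was simulated. In the data 69.4% of genes passed in this comparison, so the simulation does not cover that setting or small changes such as those of Crp and Fgb. Correlations used 100000 permutations (numpy 2.4.6). DESeq2 1.42.0 and sva 3.50.0 served as alternatives.

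The named genes were the members and, in each list, up to 2 genes with the highest and 2 with the lowest fold among those that passed. In lists of 10 or fewer genes any tested gene could be named, and for each member the 3 genes with the highest r among those whose log2 CPM averaged 0 or more. The members and lists were chosen with earlier results of these data known. Promoter sequences are from RefSeq (GRCm38.p6), and exon lengths and shared windows from an older annotation (NCBIM37).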

Additional observations from a re-analysis of the deposited data

Results flagged for a closer look

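In each group of 6 mice the highest and the lowest mouse were set against the nearest of the others by Dixon's ratio. Of 80 tests (10 genes in 8 groups), 19 were past the critical value, where chance gives about 1 in 20 tests if values are normal. The ratios were taken on CPM, which were skewed for several members, and the members varied together, so the tests are not independent. The 1 in 20 is therefore no firm yardstick. They fell on 7 mice, and 12 of the 19 on a pair of mice.

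XX Te Intact replicate 2 stood above its group for 6 genes: Saa1 at 450.5 CPM (next highest mouse 186), Saa2 at 226 (68.3), Saa3 at 32.4 (9.06), Orm1 at 1386 (684), Orm2 at 92.5 (25.7) and Lcn2 at 111 CPM (16.2). XX Ov GDX replicate 3 did so for 6 genes as well: Saa1 at 747 CPM (119), Saa2 at 336 (67.6), Orm1 at 932 (480.3), Orm2 at 225 (48.3), Lcn2 at 319.9 (76.6) and Fgb at 5946 CPM (3541). Saa1, Saa2, Orm1, Orm2 and Lcn2 were thus high together in each of these mice, with Saa3 in the first and Fgb in the other.

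XX Te GDX replicate 4 stood out for Saa1 at 1308 CPM (next highest 208) and Saa2 at 642 CPM (106). XY Ov Intact replicate 5 stood out for the same genes, Saa1 at 1658 CPM (537) and Saa2 at 999 CPM (279.7). The remaining flags were single genes. Orm2 was 17.5 CPM in XY Te Intact replicate 6 (7.83), and Apcs was 219.7 CPM in XY Te Intact replicate 3 (89.7). Apcs was lowest in XY Te GDX replicate 4, at 80.4 CPM against 102 CPM in the next lowest mouse. What set these mice apart was not tested.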

How the results depend on the processing

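Counts of members past the threshold moved as follows. The count over all tested genes moved with the setting too. It is given for some settings only, and the other member counts have no background beside them. With a test against a fold change of 1.5, they were 0 in place of 3 for the gonad in intact mice, 0 in place of 2 for the chromosomes, 1 in place of 2 for the chromosomes after GDX, 3 in place of 7 for castration and 4 in place of 8 for GDX. A fit of the compared mice alone gave 1 for the gonad in intact mice. Keeping every gene with at least 1 count gave 1 for the chromosomes and 1 for the chromosomes after GDX. The latter was also 1 with DESeq2 size factors, library totals, at least 10 counts in every mouse and DESeq2's Wald test. For it, 2347 genes were higher and 2464 lower with DESeq2 size factors, and 789 and 3406 with library totals, in place of 3001 and 2287. A surrogate variable gave 3 in place of 5 for ovariectomy, where 2799 genes were higher and 3520 lower in place of 5554 and 5141. Chosen after seeing the data, leaving out the 4 libraries with over 15% of multimapping reads gave 1 for the chromosomes, 1 for the chromosomes after GDX, 3 for castration and 3 in place of 0 for castration minus ovariectomy. The multimapping share as a covariate, also chosen after seeing the data, gave 2 for ovariectomy, 0 for castration and 0 for GDX. It gave 5 for castration minus ovariectomy, which was 1 with library totals and 2 with the Wald test. Of all tested genes, this covariate called 2739 higher and 3609 lower for ovariectomy, 999 and 820 for castration and 1468 and 1499 for GDX. For castration minus ovariectomy it called 3116 and 2448, where the main fit called 863 in either direction. Library totals called 364 and 283 there. The share hardly overlapped between intact and GDX libraries, so this fit cannot separate it from GDX. The causes were not tested.

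Leaving out 1 mouse at a time gave 2 to 6 for the gonad in intact mice, 1 to 3 for the chromosomes (1 without XY Te Intact replicate 3, where Crp had an adjusted p of 0.0552 by edgeR), 0 to 1 for the chromosomes in intact mice (1 without XX Ov Intact replicate 4 or XX Te Intact replicate 2), 1 to 2 for the chromosomes after GDX (1 in 17 fits, all through Crp), 5 to 5 for ovariectomy, 3 to 9 for castration, 7 to 10 for GDX and 0 to 5 for castration minus ovariectomy. The last was 3 without XX Ov GDX replicate 3, 4 without XX Ov Intact replicate 3 and 5 without XX Te Intact replicate 2. The counts over all tested genes in these fits are not given here, so the ranges have no background beside them. Directions reversed for Crp in the chromosomes after GDX with library totals (-0.029), for Orm1 after GDX with a surrogate variable (0.030) and with the multimapping covariate (0.16), and for Orm2 when its reads were summed with those of Orm1 and Orm3 (-1.14 for ovariectomy, -0.23 for castration and -0.69 for GDX). Library totals moved the median of all genes by 0.21 for ovariectomy, 0.20 for castration and -0.18 for the chromosomes after GDX. Leaving out XX Te Intact replicate 5 changed no call of a member. No paired analysis was possible because each mouse carries its own number and the groups share none. Nothing in the sources ties mice to litters, so p-values cover only the spread between these mice.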
